A study of Arabidopsis thaliana with 4 samples.

Results

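The make-up of the wild-type aerial transcriptome of Arabidopsis thaliana was described from the 2 Col-0 libraries among the 4 libraries of the series. The series bears the name otp90, and its other 2 libraries, of the otp90 line, were not used. Col-0, the reference accession, was grown in soil without treatment at 18 to 21 °C and at most 90 µE of light, and aerial organs were taken at Boyes stage 1.09. Total RNA extracted with Trizol was depleted of ribosomal RNA and sequenced as stranded, single-end Ion Proton libraries. The labels do not say whether replicates 1 and 2 came from separate plants, so the spread between them may be technical. Gene models were split by their identifiers into 33319 nuclear, 125 plastid and 143 mitochondrial models, after the 15 rRNA gene models had been left out. A level is given here as counts per 1000000 non-rRNA counts (CPM) per kilobase of gene model, and every ratio is replicate 1 over replicate 2 on the CPM scale unless the sentence says otherwise. Intervals are 95% intervals that cover counting error only.

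Green tissue carries 3 genomes. The plastid genome encodes core subunits of both photosystems and the large subunit of Rubisco, the enzyme that fixes carbon dioxide. The nuclear genome encodes the light-harvesting antenna, the small subunit of Rubisco and most enzymes of carbon metabolism. The mitochondrial genome encodes a small set of respiratory and ribosomal proteins. Libraries of rRNA-depleted total RNA also hold transcripts without a poly(A) tail. Among these are the 7SL RNA of the signal recognition particle, which guides secreted proteins to the endoplasmic reticulum, and the small nucleolar RNAs (snoRNAs), which take part in ribosomal RNA processing.

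The leading nuclear gene model by share of counts was an uncharacterised model of 102 nt, AT2G01021, with 80020 counts in replicate 1 and 32263 in replicate 2. These were 4.86% and 2.59% of nuclear counts. In TAIR10.1 it lies on the plus strand at chr2:6571-6672, in the ribosomal DNA repeats, 625 nt beyond the 5.8S rRNA gene AT2G01020. It is not annotated as an rRNA gene, so its counts stayed in the non-rRNA counts. Whether the reads of AT2G01021 came from ribosomal RNA was not tested. Its whole sequence is shown because this short stretch, annotated as protein-coding, took more counts than any other nuclear model in replicate 1. It is identical over 102 nt to a second stretch on chromosome 3 (TAIR10.1), and no letter is capitalised.
AT2G01021: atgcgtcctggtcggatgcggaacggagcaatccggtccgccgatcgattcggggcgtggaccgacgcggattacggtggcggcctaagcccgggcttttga

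The next model by share of counts over both libraries was AT1G15405, a non-coding RNA of 292 nt at chr1:5297875-5298166 on the minus strand of TAIR10.1, with 55106 and 37951 counts. It held 3.34% and 3.04% of nuclear counts, and its CPM did not differ between the libraries beyond counting error (ratio 0.999, interval 0.986 to 1.01). It matched AT4G02970, which bears the symbol AT7SL-1 and is annotated as protein-coding, at 81.4% identity over 290 nt. That match lay on the strand opposite to the AT4G02970 model, which itself had 0 and 1 counts. Further models annotated as protein-coding carried a match to AT1G15405 on their own strand. AT1G49700 matched it at 69.6% identity over 237 nt, of which 165 nt lay in its exons. Aligned end to end with the stretch of AT4G02970 that AT1G15405 had matched, this segment was identical in 164 of 301 columns (54.5%, gaps included). The bounds of that stretch were set by the match, not by an annotated 7SL RNA. AT2G31141 matched AT1G15405 at 81.4% over 295 nt, of which 144 nt lay in its exons. Its segment was identical to the AT4G02970 stretch in 81.8% of columns. RR3 (AT2G41310), a response regulator of cytokinin signalling, matched at 72.2% over 234 nt but had 29 and 13 counts, and its exons could not be set against the match. The full sequence of AT1G15405 follows, from the RefSeq TAIR10.1 genome, with the 124 bases that all 4 aligned segments share in capitals.
AT1G15405: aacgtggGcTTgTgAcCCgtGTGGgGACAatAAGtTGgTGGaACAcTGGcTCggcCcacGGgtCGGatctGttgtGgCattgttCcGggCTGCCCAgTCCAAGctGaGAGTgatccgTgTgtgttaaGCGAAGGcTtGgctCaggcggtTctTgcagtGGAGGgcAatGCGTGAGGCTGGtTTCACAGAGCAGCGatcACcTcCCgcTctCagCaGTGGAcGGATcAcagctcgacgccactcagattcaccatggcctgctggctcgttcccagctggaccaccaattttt
The longest shared stretch spans 27 nt, with 26 bases common to all 4, and is shown for each locus with the shared bases in capitals.
AT1G15405: GCGTGAGGCTGGtTTCACAGAGCAGCG
AT4G02970: GCGTGAGGCTGGcTTCACAGAGCAGCG
AT2G31141: GCGTGAGGCTGGtTTCACAGAGCAGCG
AT1G49700: GCGTGAGGCTGGtTTCACAGAGCAGCG

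AT1G15405 and the 2 models with at least 100 nt of match to it in their exons (AT1G49700 and AT2G31141) held 5.19% of nuclear counts in replicate 1 and 5.54% in replicate 2. AT1G49700, the least like the AT4G02970 stretch, made up 1.59% and 2.33% of nuclear counts with 26145 and 29073 counts. Only 165 nt of its match to AT1G15405 lay in the exons of this 840-nt model. Where its reads lay was not measured, so its counts are not shown to come from the matching part. It also matched a stretch of chromosome 4 that overlaps AT4G07675, at 92.7% identity over 697 nt. The 4 models in the ribosomal DNA repeats held 5.46% and 2.82%. Nearly all of the latter came from AT2G01021 and from AT2G01008, a model that ends 532 nt before the 18S rRNA gene AT2G01010 and had 9591 and 2738 counts. Both families together took 10.6% and 8.36% of nuclear counts. This grouping was made after the leading models had been seen. AT5G29890, annotated as a pseudogene of 2259 nt at chr5:11316709-11318967, held a further 2.61% and 3.29% with 43071 and 40994 counts. It was the leading nuclear model of replicate 2 by share, and no match to 7SL RNA, the ribosomal DNA repeats or the organelle genomes was found for it. Its stretch between bases 694 and 1936 has 130 matches of at least 1000 nt elsewhere on the nuclear chromosomes, at up to 89.5% identity.

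By genome, nuclear models held 65.8% of non-rRNA counts in replicate 1 and 72.3% in replicate 2, a mean of 69.1% ± 4.62 (SD, n = 2). Plastid models held 33.7% and 27.3%, with a mean of 30.5% ± 4.51 (SD, n = 2). Mitochondrial models held 0.521% and 0.362%, with a mean of 0.442% ± 0.112 (SD, n = 2). Replicate 1 was the higher one for both organelles and the lower one for the nucleus. The intervals of these shares span less than 0.15 percentage points, so all 3 shares differed between the libraries by more than counting error. These shares describe the reads that remained after the authors' removal of reads with tied alignments, which took 79.9% and 84.8% of mapped reads. Genes with near-identical copies are undercounted for that reason.

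The depth behind these values was 2503502 non-rRNA counts in replicate 1 and 1723267 in replicate 2. The rRNA models took a further 6.78% and 5.77% of counted reads, after reads with tied alignments had been removed. Most of this came from 1 mitochondrial model, ATMG00020, with 5.58% and 4.65% of counted reads. The plastid models of rrn16S, rrn23S and rrn4.5S had at most 3 counts each in either library. Among nuclear rRNA models, AT3G41768 had 14956 and 5355 counts and AT2G01010 had 11 and 6. How much rRNA remained after depletion was not measured. In replicate 1, 24688 models had a count, and in replicate 2, 23470 did. A count was present in both libraries for 21169 models and in 1 library only for 5820, of which the median model had 1 count. The remaining 6598 models had no count in either library. At these depths a count of 0 allows a level of up to 1.20 CPM in replicate 1 and 1.74 CPM in replicate 2.

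A small number of models dominated. In replicate 1, 59 of 33587 models held 50% of all counts, and in replicate 2, 125 did. The first 10 models held 35.4% and 31.3%. In the nuclear genome 420 and 463 models held 50% of its counts, which is 1.26% and 1.39% of its models. In the plastid, 2 models were enough for 50% in each library, or 1.6% of its models, and 13 were enough for 90%. In the mitochondrion, 5 and 7 models held 50%, or 3.50% and 4.90% of its models. By number of models the nuclear genome was thus the least concentrated, and by share of its models the most.

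The genes of photosynthesis held 39.1% of all non-rRNA counts in replicate 1 and 32.9% in replicate 2, summed over 42 plastid and 58 nuclear models. The plastid members alone took 30.5% and 24.8% of all counts, which was 90.6% and 90.8% of plastid counts. The nuclear members took 8.56% and 8.14% of all counts.

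**Figure D1:**
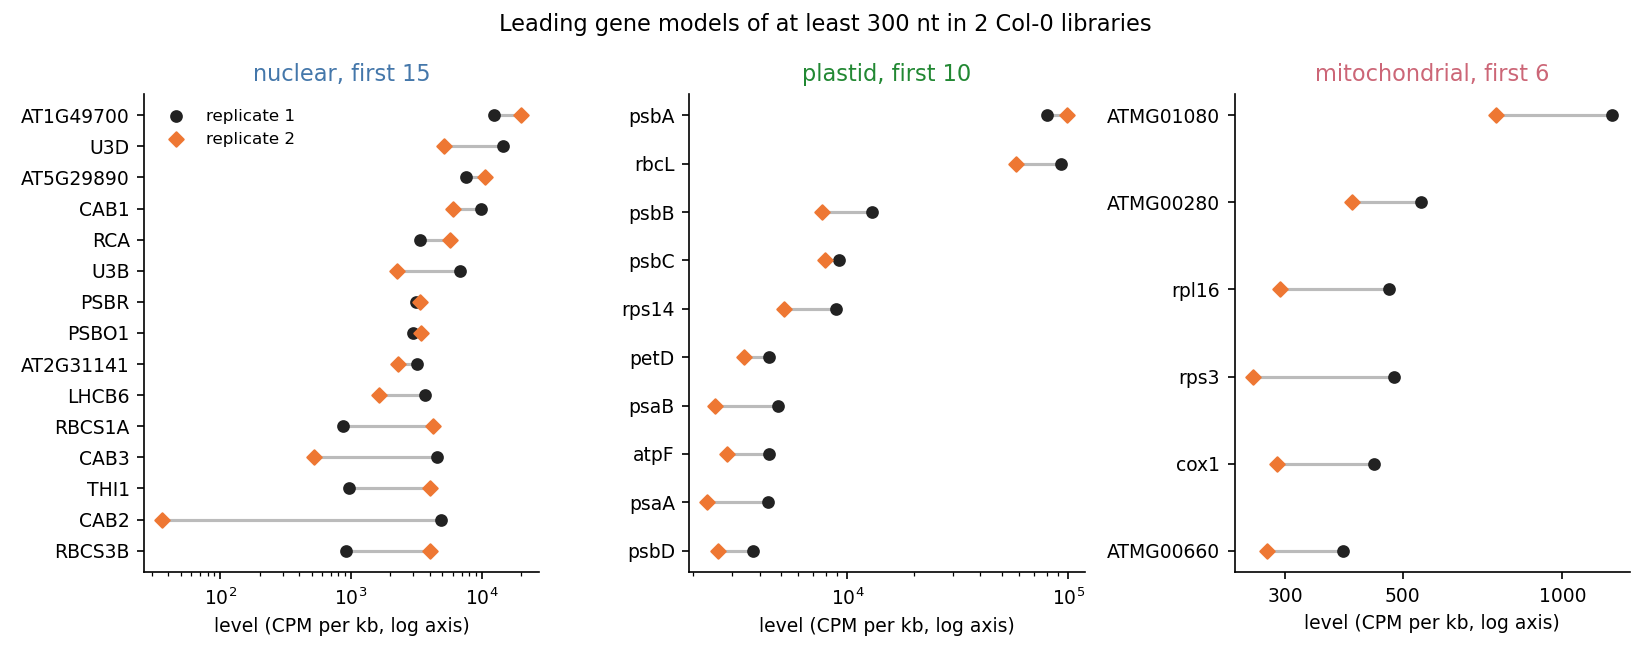
Levels of the leading gene models of at least 300 nt in each library, in CPM per kilobase on log axes, for the nuclear (15), plastid (10) and mitochondrial (6) genomes. Circles are replicate 1 and diamonds replicate 2. The plastid genes psbA and rbcL lie above all others shown, and CAB2 has the widest gap, with 14440 and 73 counts.

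In the plastid, rbcL and psbA stood apart from every other gene by share of counts. rbcL, which encodes the large subunit of Rubisco, had 333014 counts in replicate 1 and 144122 in replicate 2, or 39.5% and 30.6% of plastid counts. psbA, which encodes the D1 protein of the photosystem II reaction centre, had 213490 and 179936 counts, or 25.3% and 38.3%. By share, and by level among plastid models of at least 300 nt, rbcL was first in replicate 1 and psbA in replicate 2. The rbcL ratio was 1.59 (1.58 to 1.60) and the psbA ratio 0.817 (0.812 to 0.822), so the order of the pair reversed between libraries.

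Below them, among models of at least 300 nt, came psbB and psbC, which encode the inner antenna proteins of photosystem II. psbB reached levels of 12850 and 7701 CPM per kilobase, and psbC 9175 and 7878. rps14, a plastid ribosomal protein gene, followed with 8838 and 5182. It lay above the other ribosomal protein genes of the plastid, whose next member of at least 300 nt, rpl16, had 3048 and 1370. psaA and psaB, which encode the core pair of photosystem I, had 4357 and 4825 in replicate 1 and 2322 and 2514 in replicate 2. Their ratios were 1.88 (1.83 to 1.92) and 1.92 (1.87 to 1.96), so both were nearer to 2-fold apart than rbcL or psbB.

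By complex, the 15 photosystem II genes held 37.8% and 49.2% of plastid counts, with a median level of 3721 and 2685 CPM per kilobase. The 5 photosystem I genes held 6.78% and 4.56%, with median levels of 4825 and 2514. The 6 genes of ATP synthase held 4.19% and 3.89%, and the 6 of the cytochrome b6f complex, which links the photosystems, held 1.56% in each library. The 9 listed genes of the NDH complex, which takes part in cyclic electron flow, held 0.775% and 0.891%, and their median levels were 387 and 384. That list may lack genes of the complex, because organelle symbols were kept only where the model length equals the annotated gene. The 4 genes of the plastid-encoded RNA polymerase, which transcribes photosynthesis genes, held 0.557% and 0.480%. Their median levels, 175 and 143, were below those of every photosynthetic complex. The median over all 125 plastid models was 454 and 373. The genes rpl2, rpl23, rps7 and ycf2, present in a pair of copies in the plastid genome, had 0 counts in both libraries, where tied reads had been removed. A model of 74 nt, ATCG00230, had 26968 and 16727 counts and was among the first 5 plastid models by share.

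In the mitochondrion, levels were far lower. The leading model of at least 300 nt, ATMG01080, had 1564 and 652 counts, and its level was 1240 and 751 CPM per kilobase. It was first in both libraries. cox1, which encodes a core subunit of cytochrome c oxidase, had 1751 and 790 counts and ranked 5 by level in both. The ribosomal protein genes rps3 (2014 and 750 counts) and rpl16 (636 and 273 counts) also stood among the first 6, as did ATMG00280 and ATMG00660. cox2, another cytochrome c oxidase gene, had 556 and 278 counts. nad9, a complex I gene, had 408 and 189, and atp4, an ATP synthase gene, had 354 and 218. The genes nad6, cob, atp8, ccmC, rpl5, rps4, rps7 and rps12 had 0 counts in both libraries. Reads with tied alignments had been removed here too, and how many each mitochondrial gene lost was not measured, so a count of 0 does not show that a gene was silent. The 23 models with a symbol held 52.5% and 48.1% of mitochondrial counts, and the 120 models given by identifier only held the rest.

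Among nuclear models of at least 300 nt, AT1G49700 was first by mean level, with 12433 and 20084 CPM per kilobase. Of the first 15, 9 belong to the photosynthesis lists. CAB1, which encodes a chlorophyll a/b-binding protein of the photosystem II antenna, ranked 3 in both libraries with levels of 9768 and 6046. RCA, the Rubisco activase, had 3387 and 5732. PSBR, a small subunit of photosystem II, had 3112 and 3365, a ratio of 0.925 (0.888 to 0.963). PSBO1, part of the oxygen-evolving complex, had 2980 and 3417, a ratio of 0.872 (0.846 to 0.899). These were the smallest gaps among the first 15. THI1, which makes the thiazole part of thiamine, had 962 and 4021 and was 4.18-fold higher in replicate 2 (4.02 to 4.34).

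The remaining places went to RNAs and to the models named above. U3D and U3B, copies of the U3 snoRNA that takes part in cutting pre-ribosomal RNA, had 13206 and 3205, and 11887 and 2692 counts. They are 98.0% identical over 246 nt, so reads from either may have been removed. Their ratios were 2.84 (2.73 to 2.95) and 3.04 (2.91 to 3.17). The 71 snoRNA models held 3.51% and 1.34% of nuclear counts. Of the 65 with at least 10 counts, 27 were past 2-fold higher in replicate 1 and 2 in replicate 2. Over all genes with at least 10 counts, 15.8% were past 2-fold higher in replicate 1 and 20.2% in replicate 2, or 36% in either direction. AT4G39363, a snoRNA of 120 nt, had 8891 and 1633 counts. The 13 small nuclear RNAs, parts of the spliceosome, held 0.267% and 0.225%. The 623 tRNA models together had 118 and 49 counts, and the 178 microRNA models 83 and 57.

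**Figure D2:**
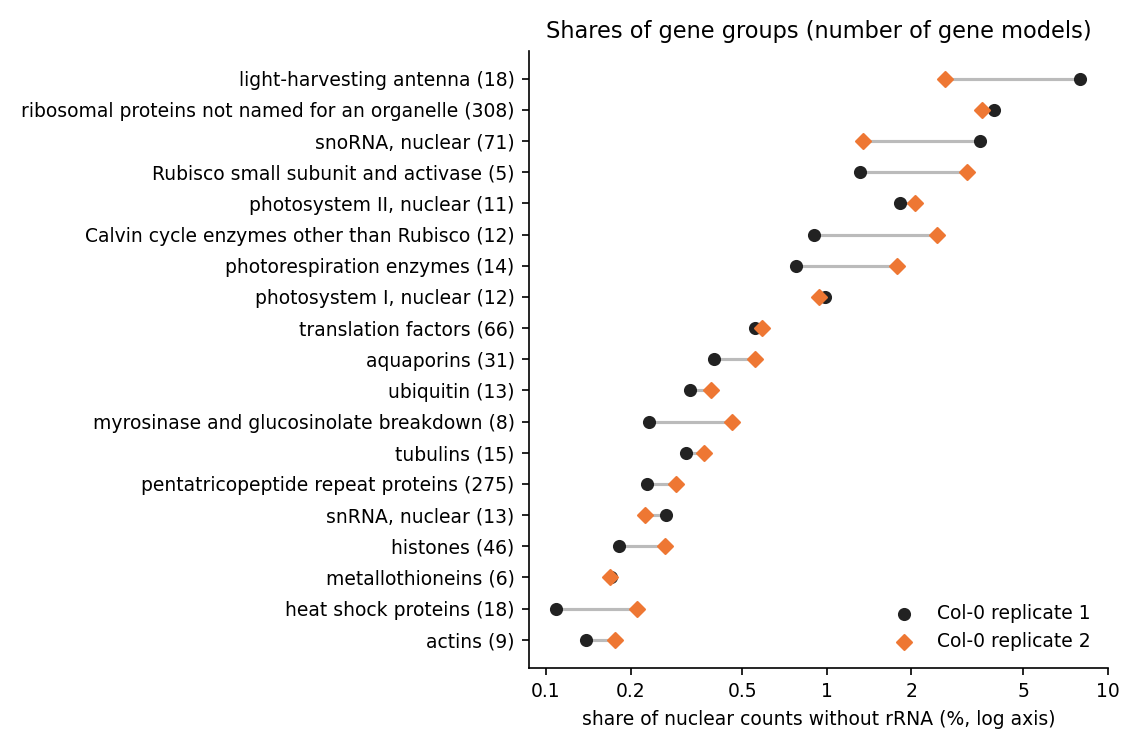
Share of nuclear non-rRNA counts (%, log axis) held by each of the gene groups with a mean share above 0.15%, with the number of gene models in parentheses. Circles are replicate 1 and diamonds replicate 2. The antenna lies at 8.0% and 2.64%, and ribosomal proteins at 3.93% and 3.57%.

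By share of counts, the light-harvesting antenna was the largest function list in replicate 1. Its 18 genes, which encode the proteins that hold chlorophyll around the photosystems, held 8.0% of nuclear counts in replicate 1 and 2.64% in replicate 2. The 308 ribosomal protein genes were the largest list in replicate 2, with 3.93% and 3.57%. Counted per kilobase the order changes, and the short snoRNAs came first in both libraries with 16.1% and 9.17%, against 4.81% and 2.08% for the antenna and 2.92% and 3.41% for ribosomal proteins. The nuclear genes of photosystem I (12 genes) held 0.985% and 0.937%, and those of photosystem II (11 genes) 1.82% and 2.06%. The Rubisco small subunit and activase genes (5) held 1.31% and 3.15%. The other Calvin cycle enzymes (12 genes) held 0.898% and 2.47%, and the enzymes of photorespiration (14 genes), which recycle the product of the oxygenase reaction of Rubisco, held 0.777% and 1.77%. Outside photosynthesis, translation factors (66 genes) held 0.556% and 0.588%, aquaporins (31 genes), which pass water through membranes, 0.398% and 0.557%, and ubiquitin genes (13) 0.325% and 0.388%. The 275 genes of pentatricopeptide repeat proteins, most of which act on organelle RNA, held 0.229% and 0.292%, with median levels of 1.20 and 1.38. The median over all 33319 nuclear models was 1.22 and 1.24, and over the 26820 with a count in either library it was 2.43 and 2.56. Of the 275 pentatricopeptide repeat genes, 10 had no count in either.

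Markers of cell types were read as a check on the label of aerial organs. The 5 mesophyll markers were all present, at 2.04% and 2.51% of nuclear counts. They were split between the libraries, with CAB3 and LHCB2.1 higher in replicate 1 and RCA, RBCS1A and CA1 higher in replicate 2. Epidermis, guard cell, trichome, phloem and xylem markers had from 40 to 1133 counts summed per list in replicate 1 and from 41 to 808 in replicate 2. Of the 7 root markers, PYK10, a beta-glucosidase, had 43 and 57 counts, and the list summed to 68 and 73. The guard cell list (47 and 59) and the trichome list (40 and 41) summed to less. These sums therefore do not set root apart from guard cells or trichomes. The 6 flower markers summed to 13 and 17 counts, the 5 seed markers to 22 and 10, the 4 shoot meristem markers to 7 and 3, and the 2 pollen markers to 1 and 1. CLV3 of the meristem and SESA3 of the seed had 0 counts in both libraries. In bulk tissue, fewer cells of a type and less RNA per cell cannot be told apart.

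The order of genes was similar in both libraries for the plastid and mitochondrion and less so for nuclear genes, while the size of many values differed. Over the 15814 genes with at least 10 counts, Pearson's r of log2(CPM + 1) across genes was 0.809 and Spearman's rho 0.768. Genes are not independent replicates, so no p is given. Of these genes, 64.0% lay within 2-fold between the libraries, 2494 were past 2-fold higher in replicate 1 and 3196 were past 2-fold higher in replicate 2. The balance of this split turns with the scale, with 2918 and 2672 genes on the TMM scale and 2814 and 2830 on the DESeq2 scale, so no direction is read from it. Among plastid genes r was 0.976 over 96 genes, with 90.6% within 2-fold. Mitochondrial genes had r = 0.936 over 42 genes, and nuclear genes r = 0.798 over 15676. Spearman's rho was 0.966 for plastid, 0.946 for mitochondrial and 0.763 for nuclear genes. The chi-square of the counts was 23.7 per degree of freedom over all genes. Within each genome it was 323 for plastid, 20.4 for nuclear and 9.69 for mitochondrial genes. None of these measures was matched between genomes for depth of counts. The libraries thus differ by more than counting error, and are not 1 library deposited under both names. Whether the rest of the difference is technical or lies between plants was not tested. The libraries were treated as 2 samples because the labels give them as such.

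**Figure D3:**
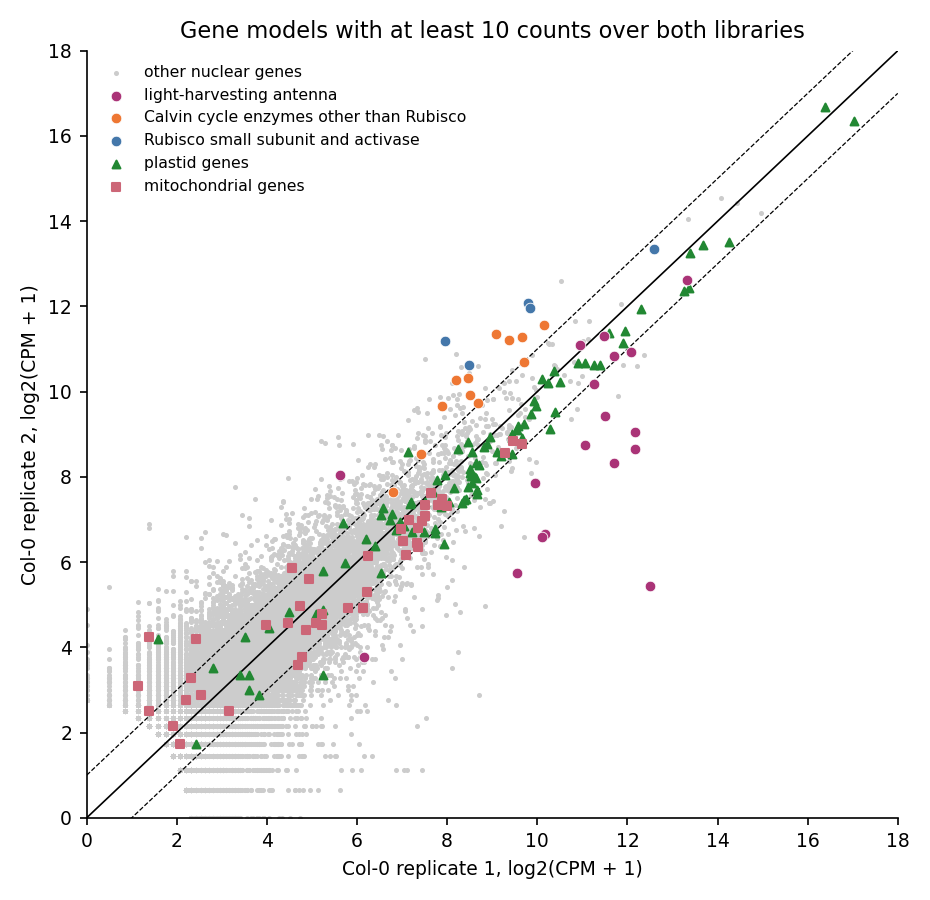
Replicate 2 against replicate 1 in log2(CPM + 1) for the 15814 gene models with at least 10 counts over both libraries. Points are gene models, the solid line is equality and the dashed lines mark 2-fold. Plastid genes (triangles) lie close to the line and mostly below it, with 72 of 96 higher in replicate 1, antenna genes lie mostly below it and Calvin cycle genes above it.

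The gap did not close with depth. Genes with 10 to 29 counts over both libraries had a median absolute log2 ratio of 0.95 and a median counting standard error of 0.77. In genes with 300 to 999 counts these were 0.52 and 0.14, and in the 379 genes with at least 1000 counts they were 0.65 and 0.07. The share within 2-fold was 51.9% in the lowest class, 76.7% at 300 to 999 counts and 69.7% in the highest class. Among the leading nuclear models by level, the first 10 of the libraries had 5 in common, the first 100 had 63 and the first 500 had 380. In the plastid the first 10 had 8 in common, and in the mitochondrion 9.

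**Figure D4:**
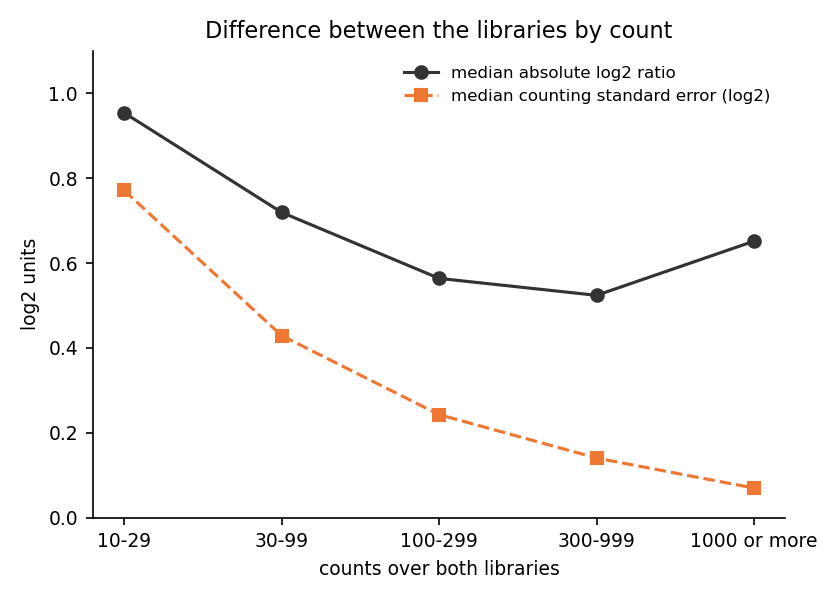
Median absolute log2 ratio between the libraries (circles) and median counting standard error of that ratio (squares), both in log2 units, by counts summed over both libraries. The counting error falls from 0.77 to 0.07 while the observed difference falls from 0.95 to 0.52 and is 0.65 in the highest class.

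The antenna genes had the largest median log2 ratio of the nuclear function lists, 2.21 in favour of replicate 1. Of 18 members, 13 were past 2-fold higher in replicate 1 and 1 in replicate 2, against 15.8% and 20.2% of all genes. CAB2 had 14440 counts in replicate 1 and 73 in replicate 2, a ratio of 136 (108 to 174). CAB3 had 11600 and 908, a ratio of 8.79 (8.22 to 9.42). CAB1 had 25529 and 10877, a ratio of 1.62 (1.58 to 1.65). These 3 genes lie close together on chromosome 1 and are 89.2% to 93.7% identical, so reads that fit more than 1 of them equally well were removed.

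Most other antenna genes were also higher in replicate 1. LHCB3 had 11514 and 695 counts, and LHCA4, of the photosystem I antenna, had 8361 and 550, a ratio of 10.5 (9.60 to 11.4). LHCB2.1 had 2906 and 172, a ratio of 11.6 (9.97 to 13.6). LHCB4.1 (7135 and 4339 counts) and LHCA2 (4919 and 3745) were within 2-fold, with ratios of 1.13 and 0.904. LHCB4.3 ran the other way, with 120 and 454 counts, 5.50-fold higher in replicate 2 (4.49 to 6.78).

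**Figure D5:**
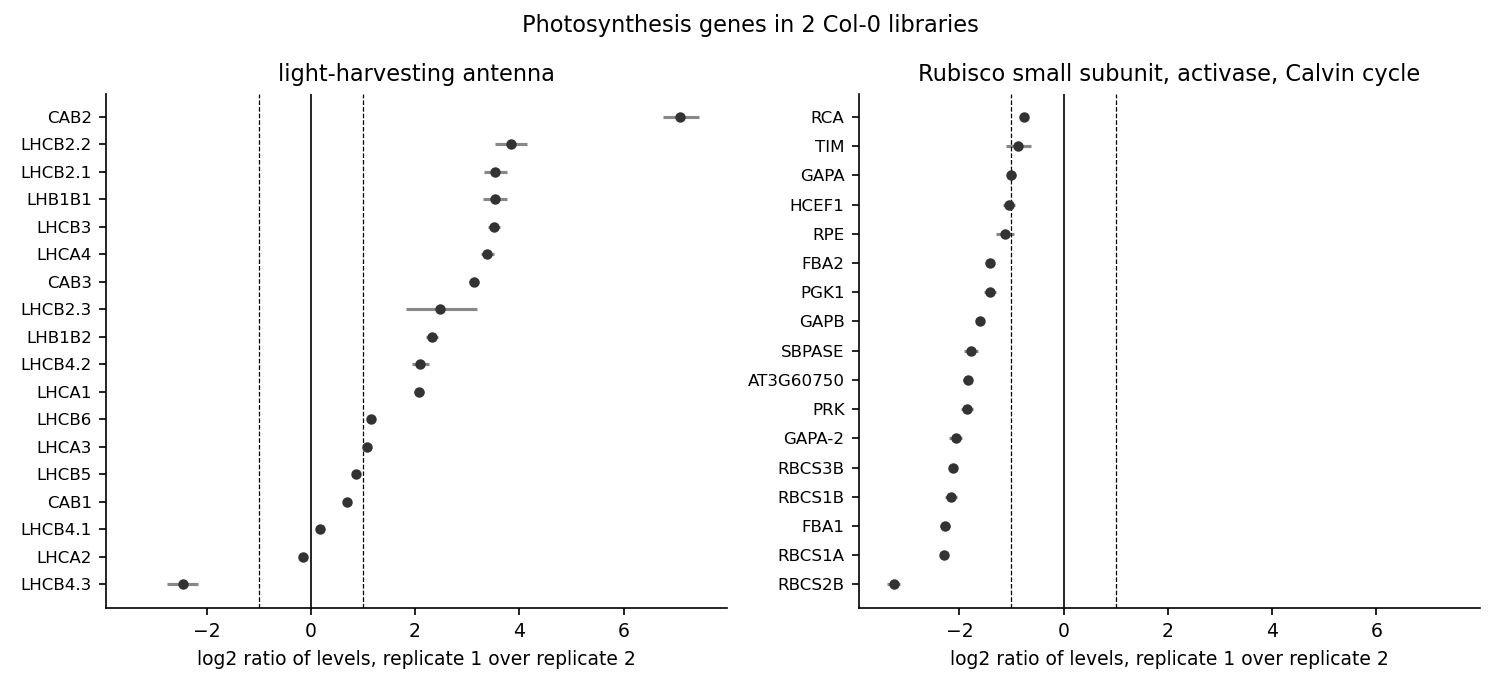
Log2 ratio of levels, replicate 1 over replicate 2, for the antenna genes (left) and for the Rubisco small subunit, activase and Calvin cycle genes (right). Bars are 95% counting intervals and dashed lines mark 2-fold. Of the antenna genes, 13 of 18 lie right of the upper 2-fold line, and all genes on the right panel lie left of 0.

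Nuclear genes of carbon fixation ran in the opposite direction, while the plastid gene rbcL was higher in replicate 1 (ratio 1.59, 1.58 to 1.60). RBCS1A, a small subunit of Rubisco, had 2216 counts in replicate 1 and 7521 in replicate 2, 4.93-fold higher in replicate 2 (4.70 to 5.17). RBCS2B had 616 and 4054, 9.56-fold higher (8.78 to 10.4), and RCA, with 15543 and 18106, was 1.69-fold higher (1.66 to 1.73). Of the 12 other Calvin cycle genes, 11 were past 2-fold higher in replicate 2 and none in replicate 1, against 20.2% and 15.8% of all genes. On the TMM scale 8 were past 2-fold higher in replicate 2, and on the DESeq2 scale 9. FBA1, a plastid aldolase, had 1349 and 4489 counts, 4.83-fold higher in replicate 2 (4.55 to 5.14), and TIM, within 2-fold, had 275 and 345. Of the 13 photorespiration genes with at least 10 counts, 9 (69.2%) were past 2-fold higher in replicate 2 and none in replicate 1. GLDP1, a subunit of glycine decarboxylase, had 454 and 3023, 9.67-fold higher in replicate 2 (8.76 to 10.7). CAT3, a catalase, had 3492 and 2534 and a ratio of 0.949 (0.901 to 0.999).

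Other lists lay on either side of the share over all genes, of which 36% were past 2-fold in either direction, 15.8% higher in replicate 1 and 20.2% higher in replicate 2. Of the 12 nuclear photosystem I genes, 1 was past 2-fold higher in replicate 1 and none in replicate 2. Of the 10 nuclear photosystem II genes with at least 10 counts, 2 were past 2-fold higher in replicate 2, and none on the TMM or DESeq2 scale. Among 258 ribosomal protein genes with at least 10 counts, 21 were past 2-fold in each direction, or 16.3% in all, and the median log2 ratio was 0.02. Of the 56 translation factor genes, 3 and 6 were past 2-fold higher in replicates 1 and 2, or 16.1% in all. These 4 lists lay below the share over all genes, but they were not matched to it for counts. Over all genes, 51.9% lay within 2-fold at 10 to 29 counts and 75.5% at 100 to 299. Of the 18 heat shock protein genes, 12 had at least 10 counts, and 8 of these were past 2-fold higher in replicate 2 and none in replicate 1, or 66.7%. Of the 23 arabinogalactan protein genes with at least 10 counts, among 49 such genes for cell surface glycoproteins, 16 were past 2-fold higher in replicate 2 and 3 in replicate 1, or 82.6%. TMM scaling and DESeq2 size factors moved the median log2 ratio of all genes by 0.13 and 0.12, so no direction is given to groups whose median lay within that distance of 0.

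The largest single ratios among genes with at least 100 counts were over 19-fold in both directions. In replicate 1, ASN1, an asparagine synthetase known to rise in darkness, had 433 counts against 2, a ratio of 149 (41.0 to 1230). SEN1, a gene of dark-held and ageing leaves, had 288 against 2, and BCB, a blue copper-binding protein, had 330 against 2. AT2G20670 had 342 against 2. In replicate 2, CYP706A6, a cytochrome P450, had 205 counts against 4, and XTH31, a cell wall enzyme that remodels xyloglucan, had 192 against 4. These were 74.5-fold (28.6 to 276) and 69.7-fold (26.8 to 259) higher in replicate 2. CGLD27 had 163 against 9, ATSPS4F, a sucrose-phosphate synthase, 375 against 22, and HBP1 177 against 13. Their number of counts on the low side sets the width of these intervals.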

How the data were processed

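Per the file headers, sam2pkm produced the deposited raw counts of single-hit reads for each gene model, and the authors had dropped every read whose best and second alignment scores were equal. The submitters' processing notes name the build TAIR10. Neither the aligner nor any use of strand in counting is given in the sources used here. Reads of overlapping or antisense genes may therefore be shared. The members, gene lists and alternatives were chosen with earlier results of these data known. Models were named by locus tag from the TAIR10.1 annotation, which matched 32835 of 33602. Coordinates and sequences come from that RefSeq build. Organelle symbols were kept only where the model length equals the annotated gene of that symbol (79 plastid and 25 mitochondrial models, rRNA included), and all others are given by identifier.

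CPM were computed over non-rRNA counts, levels per kilobase were ranked for models of at least 300 nt, and 2-fold is a described size, not a call. Shares carry Wilson intervals and ratios exact conditional intervals, at 95%. Correlations used log2(CPM + 1) over genes with at least 10 counts. With 1 group there was no contrast to test, and no p-value is given. Named genes are the first 15 nuclear, 10 plastid and 6 mitochondrial by mean level, the first 5 of each genome and of the nuclear non-coding RNAs by share, the first 2 of each list, all markers and the 5 largest ratios in each direction among genes with at least 100 counts. Other list members, the models in the ribosomal DNA repeats and the clock genes were chosen after their values were seen. Models within 3000 nt of a nuclear rRNA gene were assigned to the ribosomal DNA repeats. Models with at least 100 exonic nt of same-strand match to AT1G15405 (BLAST+ 2.17.0) were assigned to the 7SL family. AT1G15405 itself matches the locus with the symbol AT7SL-1. Alternatives used TMM (edgeR 4.0.16) and size factors (DESeq2 1.42.0) in R 4.3.3. The share, ratio and agreement functions were tested on simulated data.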

Additional observations from a re-analysis of the deposited data

How the results depend on the processing

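Shares by genome kept their order under each alternative. Counted per kilobase, nuclear models held 63.3% and plastid models 36.2%, and with rRNA models kept the mitochondrial share was 6.26%. Without the 7SL family and ribosomal DNA models, nuclear models held 66.9% and plastid models 32.6%. Pearson's r between the libraries was 0.892 with no filter on low counts, 0.737 with at least 100 counts, 0.776 with a pseudocount of 0.25 CPM and 0.788 for nuclear genes on nuclear totals. It was 0.784 without the models of the 7SL family and the ribosomal DNA repeats, a setting chosen after seeing the data. Genes within 2-fold were 49.0% with no filter and 75.3% with at least 100 counts. Of the first 10 nuclear models by level, 5 stayed among the first 10 when models of every length were ranked. Taking either library alone gave nuclear shares from 65.8% to 72.3%, plastid shares from 27.3% to 33.7% and mitochondrial shares from 0.362% to 0.521%. It gave 420 to 463 nuclear models for 50% of nuclear counts, and kept 7 of the first 10. That number was 637 without the 7SL family and ribosomal DNA models and 351.5 when counted per kilobase, both within 1.5 times the mean of 441.5 but outside the range of the libraries. Agreement between the libraries cannot be computed with either left out. Of the alternatives for these results, 33 stayed within the tolerance set for them and 11 moved, and the cause was not tested. The tolerances were 1 SD for shares, 0.02 for r, 5 percentage points within 2-fold and 1.5 times for numbers of genes. With 2 libraries, each always lies within 1 SD of their mean. Taking either library alone could therefore not move a share by genome, and those alternatives among the 33 are no check. Genes past 2-fold were higher in replicate 1 in 43.8% of cases on library totals, 52.2% on the TMM scale and 49.9% on the DESeq2 scale. No paired analysis was possible because only the Col-0 group was used and no result comes from a test.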

Other observations

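Of 11 genes of the circadian clock and its output, 7 were higher in replicate 1 beyond counting error, and for the other 4 the interval of the ratio included 1. The list was chosen after the largest ratios had been seen. The share of all genes beyond counting error was not computed, so 7 of 11 is not read as particular to the clock. Among all genes with 100 to 299 counts over both libraries, the median absolute log2 ratio was 0.56 and the median counting standard error 0.24. PRR7, a repressor of the morning loop, had 201 counts in replicate 1 and 14 in replicate 2, a ratio of 9.88 (5.75 to 18.4). PRR5 had 155 and 17, a ratio of 6.28 (3.80 to 11.1). GI, which links the clock to flowering, had 164 and 22, a ratio of 5.13 (3.28 to 8.41), and FKF1, a blue-light receptor that acts with GI, had 216 and 41, a ratio of 3.63 (2.59 to 5.20). PRR9 had 14 and 0 counts.

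The other clock genes had smaller ratios or too few counts. CCA1, a morning-phased transcription factor, had 58 and 44 counts, a ratio of 0.907 (0.603 to 1.37), and LHY had 9 and 3, a ratio of 2.07 (0.515 to 11.9). TOC1, an evening-phased repressor, had 150 and 71, a ratio of 1.45 (1.09 to 1.96), and LUX 112 and 47, a ratio of 1.64 (1.16 to 2.36). ELF3 had 115 and 68, a ratio of 1.16 (0.855 to 1.60), and ELF4 had 24 and 24, a ratio of 0.688 (0.374 to 1.27). The labels used here give no time of harvest. The part of these genes in the gaps of the antenna, Rubisco small subunit and Calvin cycle groups was not tested.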
